A study of Mus musculus with 25 samples.

Results

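The microRNAs mmu-miR-99a-5p, mmu-miR-100-5p and mmu-miR-125b-5p (written below without the species prefix) were followed across mouse mammary tumours and normal mammary gland. They were taken by their name in the scanner files, which hold 1122 mouse miRNAs, and all 3 were detected on all 25 arrays. Total RNA of snap-frozen tissue from female FVB mice was hybridised to single-colour Agilent miRNA arrays. Met encodes a receptor kinase of growth signalling, and p53, the product of Trp53, is a tumour suppressor. The 7 Met tumours carried the MMTV-Met transgene, driven by the promoter of the mouse mammary tumour virus, which is active in mammary epithelium. The 8 MetTrp53 tumours carried that transgene together with 1 floxed Trp53 allele (MMTV-Met;Trp53fl/+) and Cre. The 8 Trp53 tumours carried Trp53fl/+ and Cre without the transgene. The promoter that drives Cre is not given in the sources used here. The reference tissue was 2 pools of wild-type mammary gland, 1 from multiparous and 1 from nulliparous mice, so the spread between single normal animals was not measured. Pathology was stated for 22 of the 23 tumours, and 7 were called spindloid, of which 1 was a Met tumour, 3 were MetTrp53 tumours and 3 were Trp53 tumours. Parity was stated as multiparous for 6 of 7 Met, 2 of 8 MetTrp53 and 2 of 8 Trp53 tumours. It was stated as nulliparous for 6 MetTrp53 and 3 Trp53 tumours and for no Met tumour. Parity was not stated for 1 Met and 3 Trp53 samples. Whether the tumours are all of separate animals is not stated, and among the Trp53 tumours 2 pairs carry the same title number. The p-values reflect sample-to-sample spread, which may in part be technical. They treat each tumour as independent, and may be too small if some tumours share an animal.

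A mature miRNA guides the silencing complex to messenger RNAs, mainly through its seed, bases 2 to 8. The precursors of the 3 miRNAs lie in a pair of clusters that each hold a miR-99 or miR-100 gene, a let-7 gene and a miR-125b gene. In the RefSeq annotation (GRCm38.p6), Mir99a, Mirlet7c-1 and Mir125b-2 follow each other on chromosome 16, and Mir100, Mirlet7a-2 and Mir125b-1 follow each other on chromosome 9 inside the host gene Mir100hg. A further cluster on chromosome 17, inside Spaca6, holds Mir99b, Mirlet7e and Mir125a. miR-99 and miR-100 are known for repressing the growth kinase mTOR. miR-125b is the mammalian relative of lin-4, the first miRNA found in Caenorhabditis elegans, and in zebrafish and human cells it is known to repress p53. In mammary gland, miR-125b is also known for repressing the receptor ERBB2 in human breast cancer cells.

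The mature sequences are shown because the seeds split the 3 members into separate target classes, and because miR-99a-5p and miR-100-5p are nearly the same molecule. RefSeq (GRCm38.p6) held all 3, and capitals mark the seed, 5′ to 3′.
miR-99a-5p: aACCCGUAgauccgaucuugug
miR-100-5p: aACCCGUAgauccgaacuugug
miR-99b-5p: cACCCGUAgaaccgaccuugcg
miR-125b-5p: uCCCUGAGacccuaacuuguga
miR-125a-5p: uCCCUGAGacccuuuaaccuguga
The seed ACCCGUA was shared by miR-99a-5p, miR-100-5p and miR-99b-5p, and CCCUGAG by miR-125b-5p and miR-125a-5p. Counted from the 5′ end, miR-99a-5p and miR-100-5p differed by the single substitution U16A over 22 bases. miR-99a-5p and miR-99b-5p differed at 4 positions, A1C, U11A, U16C and U21C. miR-125b-5p and miR-125a-5p shared their first 13 bases. Both genes of miR-125b give the same mature sequence, so the array reads their sum, and the part of each cluster in it cannot be told apart. Whether the probes of miR-99a-5p and miR-100-5p also bind the other miRNA was not tested.

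Each member had 2 probes, with 40 spots in all. For each array, processed intensity was set relative to the 75th percentile of 221 probes (those well above background throughout), brought back to intensity units with the median percentile, 572, and averaged over the probes on the log2 scale. That log2 value is called the level, and the floor set for dim signals lies at a level of 3.60. Across arrays that percentile lay between 278.8 and 908.9, and between 220 and 334 miRNAs were detected per array. Across the 25 arrays the 2 probes of a member correlated at r = 0.99 for miR-99a-5p, 0.95 for miR-100-5p and 0.99 for miR-125b-5p, as a description over arrays. No spot of a member was saturated. The dimmer probe of miR-100-5p was well above background on 23 of 25 arrays, so low values of that miRNA are the least precise of the members. The other 5 probes were above it on all 25 arrays. Levels are compared between samples and not between different miRNAs.

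In tumours, miR-99a-5p lay below the normal pools in every sample. Its level in Met tumours had a lowest value of 5.61, a median of 7.92 and a highest of 8.49. In MetTrp53 tumours it ran from 6.35 to 8.47 with a median of 6.85, and in Trp53 tumours from 7.11 to 8.52 with a median of 7.76. The multiparous normal pool had 8.60 and the nulliparous pool 9.20. All 23 tumours were thus below both pools, a pattern that 7.58 percent of the 330 miRNAs tested showed in that direction. The mean was 7.43 ± 0.79 in tumours (SD, n = 23) and 8.90 ± 0.42 in the normal pools (SD, n = 2). The tumour minus normal difference in level, in which each genotype had equal weight, was -1.47 (SE 0.54, 95% interval -2.58 to -0.35), but it did not pass the threshold of 0.05 (limma adjusted p = 0.082), so this is not a call. In that comparison 42 of 330 miRNAs were called, 12.7 percent.

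**Figure D1:**
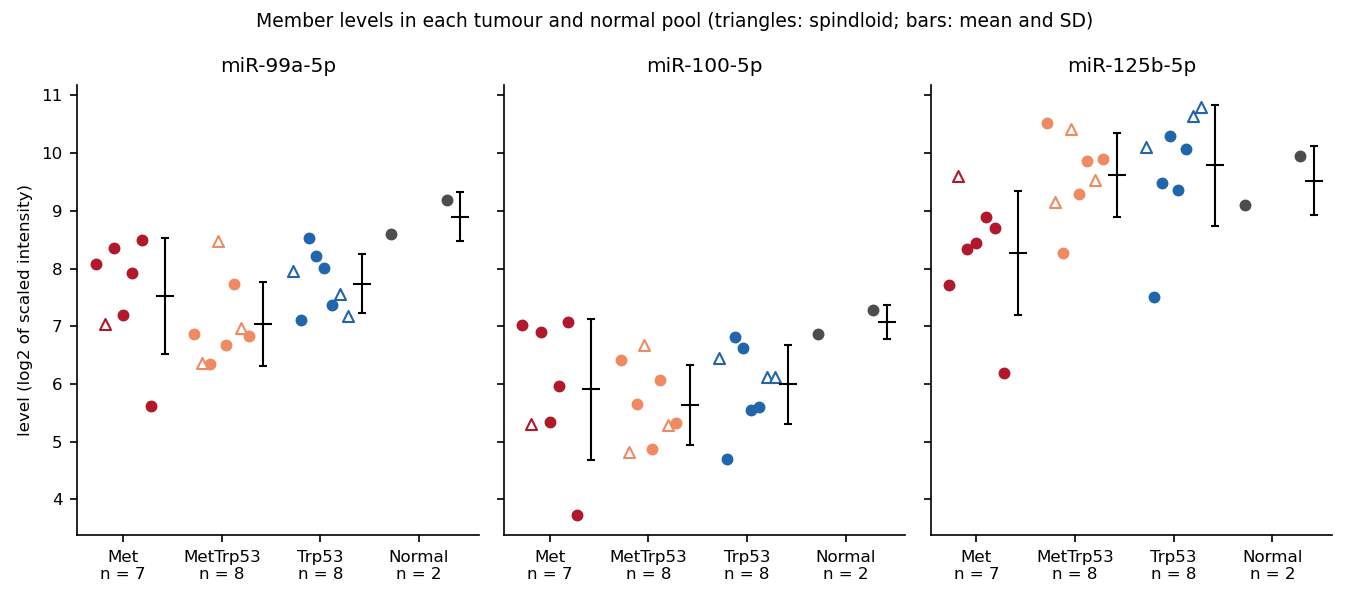
Levels of miR-99a-5p, miR-100-5p and miR-125b-5p (vertical axis, log2 of scaled intensity) on each array of Met, MetTrp53 and Trp53 tumours and of the normal pools, with spindloid tumours as open triangles and black bars for the mean and SD. All tumour points of miR-99a-5p lie under the lower normal pool at 8.60, while miR-125b-5p in Met tumours reaches from 6.19 to 9.60 and in Trp53 tumours from 7.51 to 10.80.

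By genotype, the MetTrp53 tumours stood furthest below normal for miR-99a-5p. The level averaged 7.03 ± 0.73 in MetTrp53 tumours (SD, n = 8) and 8.90 ± 0.42 in the normal pools (SD, n = 2). The log2 difference was -1.87 (SE 0.58, limma adjusted p = 0.033), that is 3.64-fold lower, and this was the only call of a member against normal. In this comparison 14.8 percent of the tested miRNAs were called, and 8.48 percent were called lower, so 1 of 3 members is to be read against that share. The call rests on the pools. The difference was -2.16 (limma adjusted p = 0.14) without the multiparous pool and -1.57 (limma adjusted p = 0.31) without the nulliparous pool. It was also lost with slide as a block (-1.73, limma adjusted p = 0.074), with scan date as a block (-1.78, limma adjusted p = 0.075) and after quantile normalization (-1.78, limma adjusted p = 0.058). Within the 2 slides that held a pool, the difference was -1.73 (1 MetTrp53 tumour against 1 pool) and -1.78 (2 against 1). Within scan dates it was -1.73 (1 against 1) and -2.14 (3 against 1). Against the same pools, the Met tumours differed by -1.37 (SE 0.59, limma adjusted p = 0.16) and the Trp53 tumours by -1.16 (SE 0.58, limma adjusted p = 0.22). Neither passed. In these comparisons 12.4 and 13.3 percent of miRNAs were called.

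miR-100-5p, which has the same seed as miR-99a-5p, had lower means in tumours than in normal gland, with overlap. In Met tumours it ran from 3.74 to 7.08 with a median of 5.96. In MetTrp53 tumours the range was 4.82 to 6.68 with a median of 5.48, and in Trp53 tumours 4.71 to 6.81 with a median of 6.12. The pools had 6.87 and 7.28. Every MetTrp53 and Trp53 tumour lay below both pools, as 13 and 13.6 percent of tested miRNAs did in these groups. Of the 7 Met tumours 4 did, while the other 3 lay between the pools. The mean was 5.84 ± 0.86 in tumours (SD, n = 23) and 7.07 ± 0.29 in the normal pools (SD, n = 2). The difference of -1.23 (SE 0.62, 95% interval -2.52 to 0.07) did not pass (limma adjusted p = 0.23). Of the genotypes, MetTrp53 tumours had the largest difference from normal, -1.44 (SE 0.67, limma adjusted p = 0.16), and the smallest was -1.08 in Trp53 tumours (SE 0.67, limma adjusted p = 0.35).

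miR-125b-5p spread widely among tumours and lay on both sides of normal. Its level ran from 6.19 to 9.60 in Met tumours with a median of 8.45, from 8.27 to 10.53 in MetTrp53 tumours with a median of 9.69, and from 7.51 to 10.80 in Trp53 tumours with a median of 10.09. The pools had 9.10 and 9.94. Below both pools lay 8 of 23 tumours and above both lay 7. Of the 8 below, 6 were Met tumours. The mean over all tumours was 9.27 ± 1.14 (SD, n = 23) and that of the normal pools 9.52 ± 0.60 (SD, n = 2), a difference of -0.30 (SE 0.68, 95% interval -1.71 to 1.11, limma adjusted p = 0.82).

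Over the miRNAs detected on all 25 arrays, the median tumour minus normal difference was 0.34, and relative to it the differences were -1.81 for miR-99a-5p, -1.57 for miR-100-5p and -0.64 for miR-125b-5p. When the percentile was taken over all mouse probes that median was 0.01, and the difference of miR-99a-5p was -1.83 (limma adjusted p = 0.038), now past the threshold.

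Some markers of other tissues were also higher in the normal pools. Of the 5 skeletal muscle miRNAs on the marker list, miR-206-3p, detected in 5 of 23 tumours, and miR-499-5p, detected in 0 of 23, entered the test only through the pools, so their direction was fixed by the filter. The other 3, miR-1a-3p, miR-133a-3p and miR-133b-3p, were detected in 7 or 8 of 23 tumours and were called lower in tumours than in normal gland. The summed scaled intensity of all 5 was 60.6 to 915.7 in Met tumours, 60.6 to 2080 in MetTrp53 tumours and 60.6 to 2132 in Trp53 tumours, against 10739 to 15211 in the normal pools, where 60.6 is the sum of 5 miRNAs at the floor. Of the adipose list 2 of 3 tested miRNAs and of the endothelial list 2 of 2 were also called lower in tumours. The smooth muscle and myoepithelial list had 2 of 2 called lower, and none of these was called higher. Over all 330 tested miRNAs, 26 were called lower. The miR-200, other epithelial, mesenchymal and leukocyte lists had 0 called. The endothelial miR-126-5p lay near the floor, with 3.98 and 4.10 in the pools. Its highest levels were 3.97 in Met, 3.74 in MetTrp53 and 3.76 in Trp53 tumours. The endothelial sum was 190.3 to 1411 over the tumour groups and 1719 to 2118 in the pools. The adipose sum was 140.8 to 889.7 in the tumour groups and 1053 to 2294 in the pools. The part of these cells in the lower miR-99a-5p and miR-100-5p levels was not tested. In bulk tissue, fewer cells of a type and less RNA per cell cannot be told apart.

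Between genotypes, miR-125b-5p was the only member called. miR-125b-5p averaged 8.27 ± 1.08 in Met tumours (SD, n = 7) and 9.79 ± 1.05 in Trp53 tumours (SD, n = 8). It was lower in Met tumours by -1.52 (SE 0.48, 95% interval -2.51 to -0.53, limma adjusted p = 0.046), or 2.87-fold. The groups overlapped: only Met tumour 7, an adenocarcinoma with 6.19, lay below all Trp53 tumours, and no Met tumour lay above them all. Both probes gave the difference, -1.53 and -1.51 (limma adjusted p = 0.049 and 0.045). In this comparison 33 of 330 miRNAs were called, 10 percent. Called lower were 18 of the 330, 5.45 percent of those tested, and miR-125b-5p was the only member among them. The value lay close to the threshold, and with 1 array left out at a time it was called in 8 of 25 fits, with differences from -1.84 to -1.17 and adjusted p from 0.0065 to 0.096. Leaving out Met tumour 7 gave -1.17 (limma adjusted p = 0.089). The difference was negative on all 5 slides, from -4.62 to -0.92, and on all 3 scan dates, from -2.58 to -0.93. Each slide held only 1 or 2 tumours of each of these genotypes. The -4.62 came from 1 pair, Met tumour 7 with 6.19 and Trp53 tumour 8 with 10.80.

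Parity and pathology moved together with this contrast. With parity as a covariate the difference was -1.74 (limma adjusted p = 0.15), and among arrays of stated parity without that covariate, a setting chosen after seeing the data, it was -1.74 (limma adjusted p = 0.061). With spindloid pathology as a covariate it was -1.32 (limma adjusted p = 0.10). For the other members the Met minus Trp53 difference was small, at -0.21 for miR-99a-5p (SE 0.38, 95% interval -1.0 to 0.57, limma adjusted p = 0.77) and -0.09 for miR-100-5p (SE 0.44, 95% interval -1.0 to 0.82, limma adjusted p = 0.95). These intervals still allow differences of up to 1 on the log2 scale.

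The MetTrp53 tumours lay near the Trp53 tumours for miR-125b-5p. The level averaged 9.62 ± 0.73 in MetTrp53 tumours (SD, n = 8) and 8.27 ± 1.08 in Met tumours (SD, n = 7), a difference of 1.35 (SE 0.48, 95% interval 0.36 to 2.34) that was not called (limma adjusted p = 0.10). Of the 8 MetTrp53 tumours, 4 lay above every Met tumour. Met tumour 2 was the single spindloid tumour of its genotype and had the highest miR-125b-5p level of the Met tumours, 9.60. Without it the difference was 1.57 and passed (limma adjusted p = 0.035). That was the only call in 25 fits that each left out 1 array, with limma adjusted p from 0.035 to 0.22. Of 19 other alternatives 0 gave a call. Between MetTrp53 and Trp53 tumours miR-125b-5p differed by -0.17 (SE 0.46, 95% interval -1.13 to 0.79, limma adjusted p = 0.97). miR-99a-5p differed by -0.71 between MetTrp53 and Trp53 tumours (SE 0.37, 95% interval -1.47 to 0.05), with 6 of 8 MetTrp53 tumours below every Trp53 tumour, and this was not called (limma adjusted p = 0.71). miR-100-5p differed by -0.36 between MetTrp53 and Trp53 tumours (SE 0.42, limma adjusted p = 0.93). No miRNA was called by limma in the MetTrp53 comparisons with Met or with Trp53 tumours, where 0 percent passed. At an unadjusted p under 0.05, 61 and 23 miRNAs passed in these comparisons.

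The group means ran in this order, from low to high. For miR-99a-5p it was MetTrp53 7.03, Met 7.53, Trp53 7.74 and normal 8.90, and for miR-100-5p the same order at 5.64, 5.91, 5.99 and 7.07. For miR-125b-5p it was Met 8.27, normal 9.52, MetTrp53 9.62 and Trp53 9.79. Of the neighbours in these orders, no pair differed past the threshold. Only the MetTrp53 and normal ends for miR-99a-5p and the Met and Trp53 ends for miR-125b-5p did.

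Spindloid tumours are made of spindle-shaped cells. For miR-125b-5p, spindloid tumours ran from 9.16 to 10.80 with a median of 10.11, and the 15 tumours of other stated pathology ran from 6.19 to 10.53 with a median of 8.89. The ranges overlapped widely, since 2 of 7 spindloid tumours lay above all others. With genotype as a covariate the difference was 0.87 (SE 0.42, 95% interval -0.01 to 1.76), and it was not called (limma adjusted p = 0.39). No miRNA was called in this comparison (0 percent of 330), and 41 passed at an unadjusted p under 0.05. miR-99a-5p ran from 6.36 to 8.47 in spindloid tumours and from 5.61 to 8.52 in the others. Its difference was -0.09 (SE 0.37, limma adjusted p = 0.95), and that of miR-100-5p was -0.04 (SE 0.43, limma adjusted p = 0.97).

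**Figure D2:**
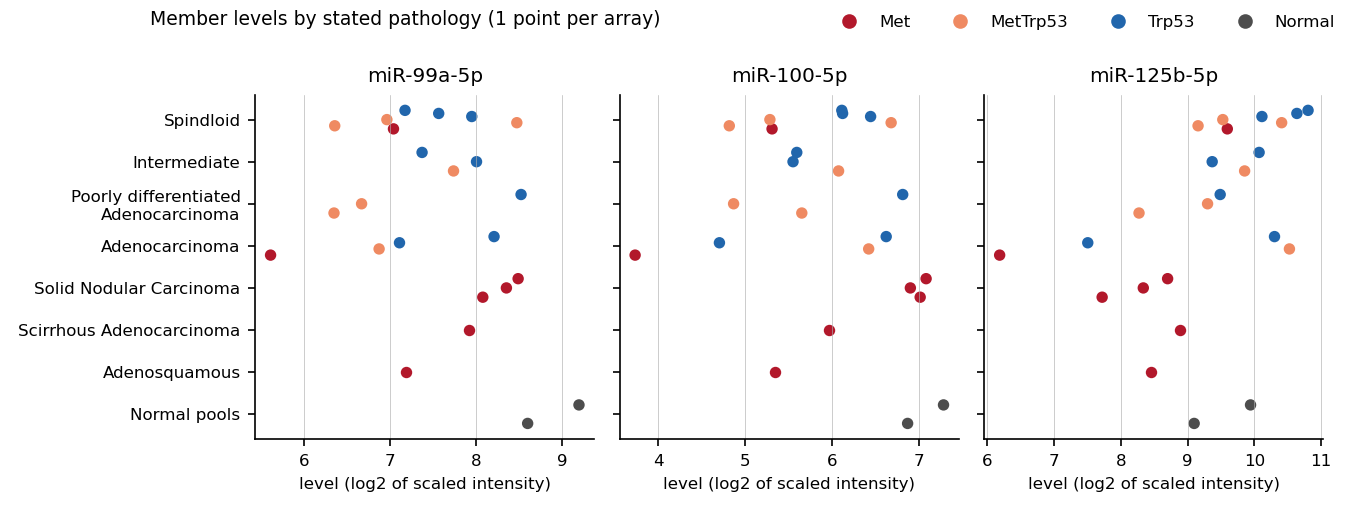
Level of each member (horizontal axis, log2 of scaled intensity) for each stated pathology and for the normal pools, 1 point per array, coloured by genotype, with the tumour of unstated pathology left out. The 3 solid nodular Met carcinomas lie at 6.90 to 7.08 for miR-100-5p and at 7.72 to 8.70 for miR-125b-5p, and the spindloid tumours lie at 9.16 or higher for miR-125b-5p.

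Within the Trp53 tumours the 3 spindloid samples had 10.11, 10.64 and 10.80 for miR-125b-5p, and the 5 others ran from 7.51 to 10.30. Within the MetTrp53 tumours the 3 spindloid samples had 9.16, 9.53 and 10.41, inside the range of the 4 others, 8.27 to 10.53. The difference between these spindloid effects was -0.96 (SE 0.95, limma adjusted p = 1.0), so the effect was not shown to depend on genotype. That test called 0 percent of miRNAs, and 3 passed unadjusted. The other pathologies had 1 to 4 tumours each and are given as values. The 3 solid nodular carcinomas, all Met tumours and singled out after their values were seen, had the highest miR-100-5p levels of the 23 tumours, 6.90, 7.01 and 7.08. Their miR-99a-5p levels were 8.08, 8.35 and 8.49, also in the upper range, and their miR-125b-5p levels were 7.72, 8.34 and 8.70, below every spindloid tumour. That held for all 6 Met tumours of other than spindloid pathology, of which the highest had 8.89. The 3 intermediate tumours had 9.37 to 10.07 for miR-125b-5p. The 4 adenocarcinomas spanned 6.19 to 10.53, nearly the whole range of the series.

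miR-99a-5p and miR-100-5p varied together across tumours. Over the 23 tumours Pearson's r was 0.85 and Spearman's rho 0.81, with permutation p = 1e-05, the smallest that 100000 resamples can give, and 2e-05 (adjusted over 3 pairs, 3e-05 and 6e-05). Without the 2 tumours farthest from the median of miR-99a-5p, Met tumour 7 and Trp53 tumour 3, r was 0.78. It was 0.86 after genotype means were removed and 0.83 after slide means were removed. Within genotypes r was 0.98 in the 7 Met tumours, 0.73 in the 8 MetTrp53 tumours and 0.72 in the 8 Trp53 tumours. The sequences of miR-99a-5p and miR-100-5p differ by 1 substitution. Whether the probes of each also bind the other was not tested, so the part of such binding in this correlation is not known. Neither of these miRNAs followed miR-125b-5p as closely. For miR-99a-5p and miR-125b-5p r was 0.31 and rho 0.15 (permutation p = 0.15 and 0.51, adjusted 0.15 and 0.51). Without Met tumour 7 and Trp53 tumour 3 that r was 0.02. For miR-100-5p and miR-125b-5p r was 0.41 and rho 0.26 (permutation p = 0.051 and 0.23, adjusted 0.076 and 0.35), and without Met tumour 7 and Trp53 tumour 2, r was -0.03. Over all tumours together, these weak relations thus rest on the tumours left out. Within genotypes, miR-99a-5p and miR-125b-5p had r = 0.57 in the 7 Met tumours, 0.66 in the 8 MetTrp53 tumours and 0.15 in the 8 Trp53 tumours. For miR-100-5p and miR-125b-5p, r was 0.46 in Met, 0.62 in MetTrp53 and 0.69 in Trp53 tumours, and the MetTrp53 group held none of the tumours left out. After genotype means were removed the r values of the 2 pairs over the 23 tumours were 0.46 and 0.55, and after slide means were removed 0.31 and 0.44. All levels of an array share its scaling.

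**Figure D3:**
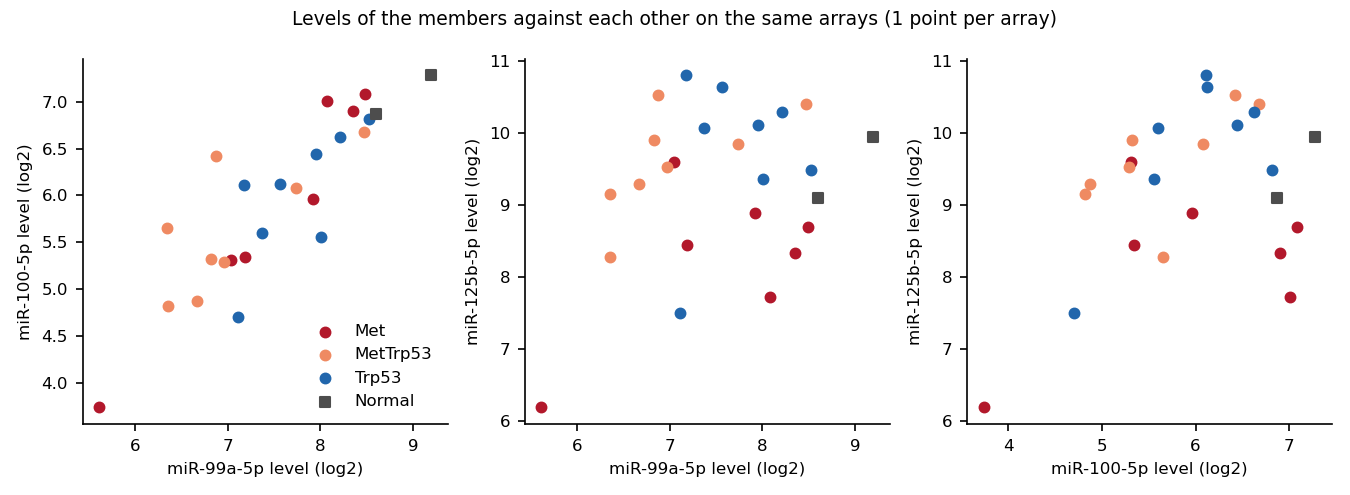
Levels of the members against each other (both axes log2 of scaled intensity), 1 point per array, with circles for Met, MetTrp53 and Trp53 tumours and squares for the normal pools. The points of miR-99a-5p and miR-100-5p lie along a line (r = 0.85 over the tumours), and those of miR-125b-5p against either scatter widely (r = 0.31 and 0.41). Binding of the miR-99a-5p and miR-100-5p probes to the other miRNA was not tested.

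The log2 ratio of members on the same array does not depend on the array's scaling percentile, apart from the floor. The ratio of miR-125b-5p to miR-100-5p differed by -1.43 between 7 Met and 8 Trp53 tumours, with an exact two-sided permutation p of 0.017 (adjusted over 9 ratio tests, 0.067). That of miR-125b-5p to miR-99a-5p differed by -1.31 (exact permutation p = 0.034, adjusted 0.076). Between 7 spindloid and 15 other tumours, with labels exchanged within genotypes, these ratios differed by 0.91 and 0.96 (exact permutation p = 0.015 and 0.022, adjusted 0.067 and 0.067). None of the 4 passed the threshold after adjustment. Tumours minus normal, the ratio of miR-125b-5p to miR-99a-5p differed by 1.21 and that to miR-100-5p by 0.98 (exact permutation p = 0.18 and 0.23, adjusted 0.33 and 0.35), where 0.0033 was the smallest p possible. The ratio of miR-100-5p to miR-99a-5p differed by 0.24 tumours minus normal, 0.12 Met minus Trp53 and 0.05 spindloid minus other (exact permutation p = 0.40, 0.57 and 0.84, adjusted 0.52, 0.64 and 0.84).

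The let-7 neighbours in the same clusters were not called. let-7c-5p and let-7a-5p, which repress growth genes such as Ras, had tumour minus normal differences of -0.13 and -0.13 (limma adjusted p = 0.85 and 0.81), and 0 of these 2 was called in any comparison of tumours with normal or between genotypes. Each of these let-7 sequences also comes from other genes, and the single substitution G19A separates them. The opposite strands of the member hairpins, miR-99a-3p, miR-100-3p, miR-125b-1-3p and miR-125b-2-3p, were detected on none of the arrays and stayed at the floor of 3.60. Of all 10 opposite strands of these families on the array 3 could be tested, and only miR-99b-3p was called. It had levels of 3.60 to 3.88 in Met tumours and 3.73 to 4.14 in Trp53 tumours, close to the floor, and was lower in Met tumours (limma adjusted p = 0.028). It was also called higher in Trp53 tumours than in normal gland (limma adjusted p = 0.047), and since both pools stood at the floor no size is given.

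All 3 miRNAs of the paralogous cluster on chromosome 17 were called higher in MetTrp53 and in Trp53 tumours than in normal gland. In Met tumours all 3 differences from normal were positive, and only that of miR-125a-5p was called. miR-99b-5p, with the seed of miR-99a-5p, had 5.65 to 7.11 in Met tumours, 6.30 to 7.52 in MetTrp53 tumours and 6.85 to 8.41 in Trp53 tumours, against 5.29 and 5.52 in the pools. Its tumour minus normal difference was 1.58 (SE 0.36, limma adjusted p = 0.0033). miR-125a-5p, with the seed of miR-125b-5p, rose by 1.50 (SE 0.26, limma adjusted p = 0.00027), and let-7e-5p by 1.12 (SE 0.26, limma adjusted p = 0.0039). That is 3 of 3 called higher over all tumours, against 4.85 percent of tested miRNAs called higher. By genotype, 1 of 3 was called in Met tumours, where miR-125a-5p differed by 0.93 (limma adjusted p = 0.032), miR-99b-5p by 0.87 (limma adjusted p = 0.19) and let-7e-5p by 0.71 (limma adjusted p = 0.13). In MetTrp53 and in Trp53 tumours 3 of 3 were called, with median differences of 1.49 and 2.07. Over all 330 tested miRNAs, 13 were called higher than normal in Met, 21 in MetTrp53 and 18 in Trp53 tumours. In Met minus Trp53 the 3 of this cluster were lower by -1.37, -1.14 and -0.93 (limma adjusted p = 0.0028, 0.00095 and 0.0029), the direction in which miR-125b-5p differed. Called lower there were 18 of 330. The 3 genes lie in 1 cluster, so their calls may not be independent of each other. The median of this list was 1.50 in tumours minus normal, that of the members -1.23, and that of all 330 tested miRNAs 0.14. In Met minus Trp53 the medians were -1.14, -0.21 and 0.01.

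**Figure D4:**
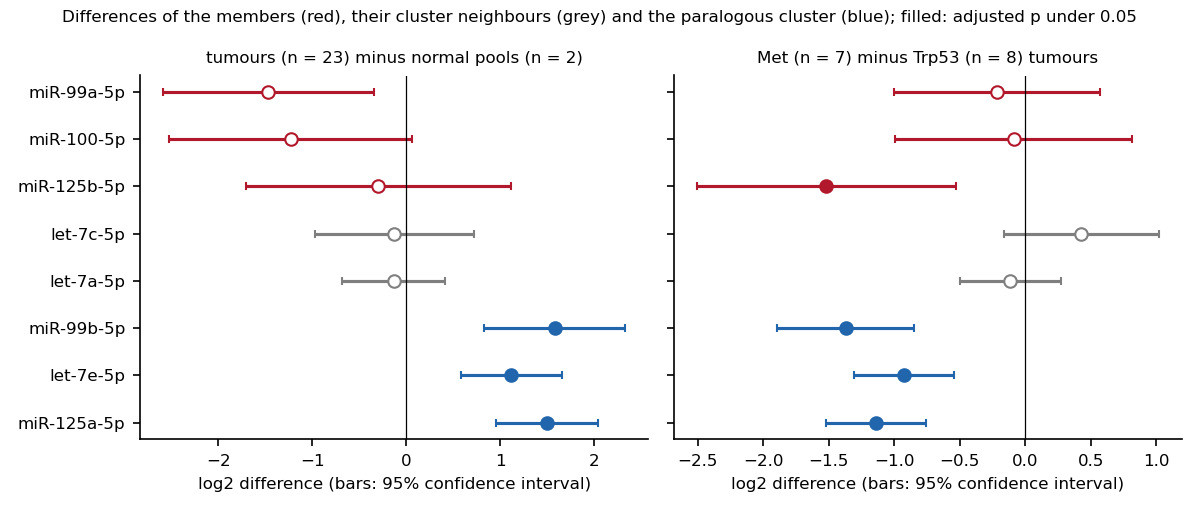
Log2 differences with 95% confidence intervals (horizontal axes) of the members, their let-7 cluster neighbours and the paralogous cluster, for 23 tumours minus 2 normal pools and for 7 Met minus 8 Trp53 tumours. Filled points passed an adjusted p of 0.05. miR-99b-5p, let-7e-5p and miR-125a-5p lie right of 0 against normal (1.12 to 1.58), and miR-125b-5p lies left of 0 in Met minus Trp53 (-1.52).

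Of the miRNAs with related 5′ ends, miR-10b-5p and miR-10a-5p, which lie in Hox gene clusters, only the first was called. miR-10b-5p ran from 3.60, the floor, to 7.08 over the Met tumours and had 7.72 and 7.82 in the pools. In MetTrp53 tumours it ran from 4.55 to 6.39 and in Trp53 tumours from 4.84 to 6.85. It was lower in tumours by -2.42 (SE 0.73, limma adjusted p = 0.028), and miR-10a-5p differed by -1.43 (limma adjusted p = 0.16). miR-351-5p, which shares the seed of miR-125b-5p, was detected in 8 of 23 tumours, none of them a Met tumour, and in neither pool, and its levels of 3.60 to 3.77 were too near the floor to give a difference. miR-670-5p was not detected on any array. In this list 1 of 3 tested miRNAs was called in tumours minus normal and none between Met and Trp53 tumours. Over all tested miRNAs 12.7 and 10 percent were called in these comparisons. miR-6367 and miR-6394 also hold the seed CCCUGAG in RefSeq and were not on the array.

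The miRNAs whose levels most resembled each member over the 23 tumours were ranked by Pearson's r among 160 miRNAs detected on all arrays, as a description without a test. Next to each other, miR-99a-5p and miR-100-5p both had let-7a-5p (r = 0.71 and 0.78) and miR-29c-3p (0.68 and 0.77) highest, followed by miR-195-5p (0.67) and miR-423-5p (0.66) for miR-99a-5p and by miR-152-3p (0.70) and miR-26a-5p (0.68) for miR-100-5p. Of these, miR-29c-3p, known for repressing collagen messages, was called lower in tumours than in normal gland, by -1.85 (SE 0.39, limma adjusted p = 0.0017). Those most like miR-125b-5p were miR-223-3p, a miRNA of myeloid cells (0.85), miR-221-3p (0.84), miR-22-3p (0.84), miR-199b-5p, found in mesenchymal cells (0.79), and miR-23a-3p (0.78). The median r over all candidates was 0.06 for miR-99a-5p, 0.06 for miR-100-5p and -0.16 for miR-125b-5p.

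Some markers of other cell types were also called between Met and Trp53 tumours, where 10 percent of all tested miRNAs were called. Of the mesenchymal list, 1 of 4 tested miRNAs, miR-199b-5p, was called lower in Met tumours (-2.16, limma adjusted p = 0.045), and all 4 had negative differences. The mesenchymal sum of scaled intensity ran from 134.5 to 2680 in Met tumours and from 632.3 to 3920 in Trp53 tumours. Of the leukocyte list, 1 of 6, miR-223-3p, was called lower in Met tumours (-1.64, limma adjusted p = 0.042), and 3 of 6 were negative. That sum ran from 160.8 to 1664 in Met tumours and from 402.6 to 1657 in Trp53 tumours. Of the miR-200 family, which marks epithelial cells, 3 of 5 were called higher in Met tumours and all 5 were positive. The sum ran from 60.6 to 4900 in Met tumours and from 60.6 to 2199 in Trp53 tumours, and at 60.6 all 5 stood at the floor. Of the other epithelial list 0 of 5 were called and all 5 were positive. In spindloid tumours the miR-200 sum was 60.6 to 115.1, and in tumours of other pathology 60.6 to 4900. The mesenchymal sum was 571.7 to 4284 in spindloid tumours and 134.5 to 3920 in the others. The part of these cell types in the miR-125b-5p levels was not tested.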

How the data were processed

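RNA of 25 arrays (23 tumours, 2 normal pools) was analysed. Per the file headers, spot intensity in the deposited scanner files came from Agilent Feature Extraction 10.7.3.1. Its processed signal has the background subtracted but no scaling between arrays. A deposited table gives the authors' log2 value of each spot, and RMA is named for it per the submitters' processing notes, without a role or version. Its column medians were 1.72 to 1.91, and its centring is not known. It served as an alternative.

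Outlier spots were left out. The signal was scaled to the 75th percentile of 221 probes, floored at 0.0212 of it, and log2 taken. Tests covered the 330 miRNAs detected in both normal pools or in 7 or more tumours. limma 3.58.1 (R 4.3.3) fitted all 25 arrays in 1 model with 4 groups, or 22 tumours with genotype as a covariate for pathology, with Benjamini-Hochberg adjustment over 330 miRNAs and a threshold of 0.05. Ratios between members were tested by exact permutation and correlations by 100000 resamples (Python, scipy). The limma fit and the permutation test were tested on simulated data. The number of arrays limits the precision. Groups came from the labels, and replicate numbers only name samples. All comparisons with normal share the 2 pools.

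The files had no mean signal column, so normexp used the median signal and median background with an offset of 50. Other alternatives were other scalings, floors, probe summaries and filters, slide or scan date as a block, parity and spindloid covariates, averaging tumours of 1 title number, fits of the compared groups alone, and leaving out each array. The 2 settings that keep only arrays of stated parity or pathology were added after seeing the data. Named miRNAs were the members, the listed cluster, seed and cell type miRNAs, sharers of a member's seed, and the 5 most alike for each member. The members and lists were chosen with earlier results of these data known. The arrays measure neither Met nor Trp53 messages, so the genotypes were not checked here.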

Additional observations from a re-analysis of the deposited data

Results flagged for a closer look

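Trp53 tumour 2, an adenocarcinoma, stood apart from its group for miR-125b-5p. Its level was 7.51, and the nearest of the other 7 Trp53 tumours had 9.37, a gap of 0.56 of the group's whole range. Of the 15 groups of 4 to 10 tumours examined in this way, chance would single out about 1 in 20. Without this tumour the Met minus Trp53 difference of miR-125b-5p was -1.84 (limma adjusted p = 0.0065). The tumour was singled out by these same values and is the lowest of its group, so leaving it out had to widen the difference. Of the 25 fits that each left out 1 array, 8 gave a call, with limma adjusted p up to 0.096. Leaving out Met tumour 7 gave -1.17 (limma adjusted p = 0.089).

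The difference of miR-125b-5p from the same normal pools was flagged as unlike in Met and Trp53 tumours. It was -1.25 in Met tumours and 0.27 in Trp53 tumours, and neither passed (limma adjusted p = 0.38 and 0.97). The pools cancel between these 2, so the test of their difference (-1.52, limma adjusted p = 0.046) is the Met minus Trp53 comparison already given. It adds no separate result, and that call was kept in 9 of 19 alternatives.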

How the results depend on the processing

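The 2 calls of members were close to the threshold. The Met minus Trp53 difference of miR-125b-5p kept its sign under every alternative run, from -1.74 to -1.25 apart from the fits that leave out 1 array, and lost the call (limma adjusted p in brackets) with a floor 2 times higher (-1.50, 0.059), no detection filter (-1.52, 0.058), only the groups compared in the fit (-1.52, 0.11), parity as a covariate (-1.74, 0.15), stated parity alone (-1.74, 0.061), spindloid as a covariate (-1.32, 0.10), stated pathology alone (-1.52, 0.066), the percentile over all mouse probes (-1.63, 0.068), quantile normalization (-1.64, 0.052) and slide as a block (-1.58, 0.058). The MetTrp53 minus normal difference of miR-99a-5p kept its sign and lost the call with quantile normalization (-1.78, 0.058), scan date (-1.78, 0.075) and slide (-1.73, 0.074) as a block. The tumours minus normal difference of miR-99a-5p passed with the all-probe percentile (-1.83, 0.038). The spindloid minus other ratios of miR-125b-5p to miR-99a-5p and to miR-100-5p passed without the genotype covariate (1.31 and 1.24, exact permutation, adjusted 0.048 each) and with normexp (0.87 and 0.89, adjusted 0.047 and 0.031). The cause was not tested.

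Signs turned only for differences that were not called. Spindloid minus other, miR-99a-5p gave 0.047 and miR-100-5p 0.097 in the authors' table, both gave 0.032 with quantile normalization, and they gave 0.16 and 0.19 with slide as a block. miR-99a-5p also gave 0.0099 with stated parity alone and 0.042 with tumours of 1 title number averaged. The spindloid ratio of miR-100-5p to miR-99a-5p gave -0.0075 with a floor 2 times higher, -0.077 without intermediate tumours, -0.021 with normexp, -0.00018 with quantile normalization, -0.095 with stated parity alone and -0.067 with title numbers averaged. Its Met minus Trp53 value gave -0.038 for the brightest probe and -0.018 with a floor 4 times lower. MetTrp53 minus normal, miR-125b-5p gave 0.098 in the fit reported, -0.0080 for the brightest probe, -0.42 with the all-probe percentile, -0.13 with scan date and -0.17 with slide as a block, and Trp53 minus normal it gave -0.023 with slide as a block.

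With each array left out in turn, the Met minus Trp53 difference ran from -1.84 to -1.17 for miR-125b-5p, from -0.37 to 0.11 for miR-99a-5p and from -0.28 to 0.27 for miR-100-5p. Against normal, miR-99a-5p ran from -1.76 to -1.17 in all tumours, called in 2 of 25 fits (without Met tumour 7 or MetTrp53 tumour 4), and from -2.16 to -1.57 in MetTrp53 tumours. miR-125b-5p ran from -0.72 to 0.13 in all tumours, from -0.32 to 0.52 in MetTrp53 tumours and from -0.16 to 0.69 in Trp53 tumours. It ran from 1.0 to 1.57 in MetTrp53 minus Met and from -0.49 to 0.024 in MetTrp53 minus Trp53. Spindloid minus other, miR-99a-5p ran from -0.33 to 0.024 and miR-100-5p from -0.21 to 0.12. The ratios of miR-125b-5p to miR-100-5p and to miR-99a-5p ran from -1.75 to -1.15 and from -1.61 to -1.08 in Met minus Trp53, both passing without Met tumour 2, and from 0.60 to 1.04 and from 0.69 to 1.15 in spindloid minus other, both passing without MetTrp53 tumour 4 and the second also without MetTrp53 tumour 1. The spindloid ratio of miR-100-5p to miR-99a-5p ran from -0.07 to 0.16.

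Counts of called miRNAs moved by 1.5 times or more in places. In Met minus Trp53, 33 became 21 with normexp, 18 with spindloid and 7 with parity as a covariate, 11 with stated parity alone, 62 without Met tumour 2, 18 without Met tumour 3, 19 without Met tumour 6 and 20 without Trp53 tumour 1 or Trp53 tumour 5. In MetTrp53 minus Met, 0 became 16 in the authors' table, 7 with a floor 4 times lower, 6 for miRNAs detected on all arrays, 41 without Met tumour 2, 25 without MetTrp53 tumour 3, 11 without MetTrp53 tumour 5, 9 without Trp53 tumour 3 and 1 without Trp53 tumour 2. In spindloid minus other, 0 became 16 without intermediate tumours, 6 with normexp, and 1 in the authors' table, with a floor 4 times lower or without Trp53 tumour 1. Tumours minus normal, 42 became 28 with normexp, 26 for miRNAs detected on all arrays, and 17 and 26 without the multiparous and the nulliparous pool. Of the calls 38.1 percent were higher, and 12.5 percent under the all-probe percentile. Against normal, normexp gave 26, 30 and 28 calls for Met, MetTrp53 and Trp53 tumours, miRNAs detected on all arrays 27, 30 and 21, leaving out the multiparous pool 13, 22 and 20, and leaving out the nulliparous pool 22, 29 and 26, where the fit reported gave 41, 49 and 44; Met minus normal gave 19 with only the groups compared.

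With 2 pools the comparisons with normal have little power, and the dimmer miR-100-5p probe limits its low values. No paired analysis was possible because the labels give no replicate numbers that pair tumours across groups, and slide and scan date were the only blocks fitted.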
